A study of Homo sapiens with 12 samples.

Results

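The genes described here encode voltage-gated and leak ion channels, together with the related potassium channels and the accessory subunits that share their symbols. They were chosen by symbol from the authors' table of normalized gene signal: every row named as a potassium (KCN), sodium (SCN), voltage-gated calcium (CACNA1, CACNA2D, CACNB, CACNG), hyperpolarization-activated (HCN) or sodium leak (NALCN) channel gene. The family was chosen with earlier results of these data known. Its rows were picked by name and by no measured value, which gave 140 of the 28813 rows. Of these, 95 are potassium, 14 sodium, 26 calcium and 4 HCN channel genes, and 1 is NALCN.

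RNA came from MKL-1, an established line of human Merkel cell carcinoma that carries Merkel cell polyomavirus, grown in RPMI medium with serum. EPZ011989 inhibits EZH2, the enzyme of Polycomb repressive complex 2 that methylates lysine 27 of histone H3, a mark of silenced genes. The 4 groups of 3 polyA-selected libraries each were cells in EPZ011989 at 3 µM for 6 days, cells in vehicle for 6 days, cells in EPZ011989 at 3 µM for 12 days, and cells in vehicle for 12 days. All groups carried ethanol at 1%, were split at intervals of 3 days and got fresh medium then. A single cell line was used, and the labels do not say that libraries of 1 group came from separate cultures, so the p-values reflect variation from library to library that is possibly no more than technical.

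Voltage-gated channels are built from a pore-forming subunit, which opens on a change in membrane voltage, and accessory subunits, which set its gating and its delivery to the membrane. Sodium channels drive the upstroke of action potentials, potassium channels end it and set the resting potential, and calcium channels couple depolarization to secretion. Leak channels are open near rest: K2P channels (tandem-pore potassium channels) carry potassium out of the cell, and NALCN carries sodium in. Merkel cells, the touch receptor cells of the skin, are electrically excitable and use voltage-gated calcium and potassium channels.

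The promoters of 4 members are shown because the results turn on these genes: NALCN and KCNA10, which had no read in the vehicle libraries at day 12, KCNK3, a leak channel that was higher at both days, and KCNH6, the channel gene with the most RNA. Each runs from 250 bases before to 50 bases after the start of the gene in the RefSeq annotation of GRCh38.p14, and is written 5′ to 3′ on the strand of the gene. NALCN lies at chr13:101416459-101416758 on the minus strand and KCNA10 at chr1:110519126-110519425 on the minus strand. In these 2 sequences the capitals mark CG, the dinucleotide that is dense in the CpG islands Polycomb complexes often occupy.
NALCN: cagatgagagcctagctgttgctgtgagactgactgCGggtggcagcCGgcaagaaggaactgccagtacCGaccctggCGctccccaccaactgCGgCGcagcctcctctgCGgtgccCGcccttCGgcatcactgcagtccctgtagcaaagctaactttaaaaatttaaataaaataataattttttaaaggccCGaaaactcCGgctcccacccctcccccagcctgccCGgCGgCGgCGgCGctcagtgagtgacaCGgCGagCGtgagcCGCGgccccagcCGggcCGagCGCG
KCNA10: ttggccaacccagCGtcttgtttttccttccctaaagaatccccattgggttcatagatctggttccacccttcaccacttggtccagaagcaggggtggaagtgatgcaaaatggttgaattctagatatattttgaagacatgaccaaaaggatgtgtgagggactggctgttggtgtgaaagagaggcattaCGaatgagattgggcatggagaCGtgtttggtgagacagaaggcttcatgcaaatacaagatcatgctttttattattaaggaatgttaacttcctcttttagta
KCNK3 lies at chr2:26692472-26692771 and KCNH6 at chr17:63523108-63523407, both on the plus strand. Here the capitals mark the left and right parts of the site bound by REST, the repressor of neuronal genes outside neurons.
KCNK3: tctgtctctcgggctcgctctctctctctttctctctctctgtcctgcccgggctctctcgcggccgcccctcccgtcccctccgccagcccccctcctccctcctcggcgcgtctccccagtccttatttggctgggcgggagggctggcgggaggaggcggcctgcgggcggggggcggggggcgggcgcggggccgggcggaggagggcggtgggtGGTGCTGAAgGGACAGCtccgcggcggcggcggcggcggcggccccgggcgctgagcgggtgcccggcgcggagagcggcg
KCNH6: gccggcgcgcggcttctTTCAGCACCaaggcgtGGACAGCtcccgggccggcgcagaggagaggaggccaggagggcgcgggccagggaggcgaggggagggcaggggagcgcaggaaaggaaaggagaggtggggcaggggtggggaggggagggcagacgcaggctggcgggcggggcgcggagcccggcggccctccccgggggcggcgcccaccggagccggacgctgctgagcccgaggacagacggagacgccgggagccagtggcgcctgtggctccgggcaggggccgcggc
NALCN held 25 CG in its 300 bases and KCNA10 held 3. The table of promoters matched 71 of the 100 channel genes that could be tested, and those 71 had a median of 23 CG, against 26 over the 10992 tested genes with a promoter in the table. The left part TTCAGCACC and the right part GGACAGC of the REST site were searched on both strands, without mismatches and without a rule on spacing. KCNK3 and KCNH6 were the 2 of 71 channel promoters (2.82%) that held both parts, against 13 of 10992 promoters (0.118%) of tested genes. In KCNK3 the left part stands on the other strand as GGTGCTGAA. These matches describe letters only. REST itself had a normalized signal of 0 to 6.22 in the 12 libraries in the authors' deposited table, and its reads did not pass the filter on low counts.

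Libraries held 15994997 to 20866370 reads. Of the 15024 genes tested by edgeR's quasi-likelihood method, with Benjamini-Hochberg adjusted p under 0.05 as the call, 34.2% were called at day 6 and 66.9% at day 12. All 12 Merkel cell carcinoma markers had at least 1 CPM (reads of a gene scaled to library size). Their summed level was 3380 to 3450 CPM in EPZ011989 and 3930 to 4050 CPM in vehicle at day 6, and 3470 to 3690 CPM in EPZ011989 and 3510 to 3880 CPM in vehicle at day 12. Library 1 of vehicle at day 12 stood apart from its group, with a score of -51.4 on the third principal component, against -14.0 and 7.0 in the other 2 libraries. The count of channel genes called at day 12 was 48 higher and 21 lower without it.

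Of the 140 channel genes, 100 passed the filter on low counts. The other 40 comprised 11 with no read in any library and 29 with up to 77 reads over all 12 libraries. Among the untested were KCNA5 and KCNA7, SCN4A and SCN10A, CACNA1S, and 5 of the 8 CACNG genes. At day 6, 44 of the 100 tested channel genes were higher and 16 lower in EPZ011989 than in vehicle, where 17.1% of all tested genes were higher and 17.0% lower. At day 12, 51 were higher and 20 lower, where 33.7% of all tested genes were higher and 33.2% lower. The median log2 fold change of the tested channel genes was 0.48 at day 6 and 0.57 at day 12, beside -0.02 and 0.02 over all tested genes. For the 69 channel genes with at least 1 CPM in vehicle the medians were 0.18 and 0.23. The channel share called lower at day 12 was thus below that of all genes, and the share called higher was above it at both days. These counts need a limit: 21 of the 100 tested channel genes passed the filter through the EPZ011989 libraries and would have failed it on vehicle libraries alone, against 7.70% of all tested genes. Of these 21, 12 were called higher at day 6 and 15 at day 12. The 79 others gave 32 higher and 16 lower at day 6, and 36 higher and 20 lower at day 12.

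Calls were also counted by the level of a gene in vehicle. Of the 69 channel genes with at least 1 CPM in vehicle, 27 were higher and 16 lower at day 6, beside 16.1% and 19.5% of all genes at that level. At day 12, 31 of the 69 were higher and 20 lower, beside 31.4% and 37.9% of all genes at that level. The 31 tested channel genes under 1 CPM in vehicle gave 17 higher at day 6 and 20 at day 12, and none was called lower. At such levels 23.6% of all tested genes were called higher at day 6 and 48.3% at day 12, and 0.552% and 2.96% were called lower. The lack of lower calls follows from the grouping, since a gene this low in vehicle can hardly be called lower. Some of these channel genes, such as NALCN and KCNA10, were tested only because of their reads in EPZ011989 libraries. In bulk RNA, more RNA per cell cannot be told apart from more cells that express the gene.

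**Figure D1:**
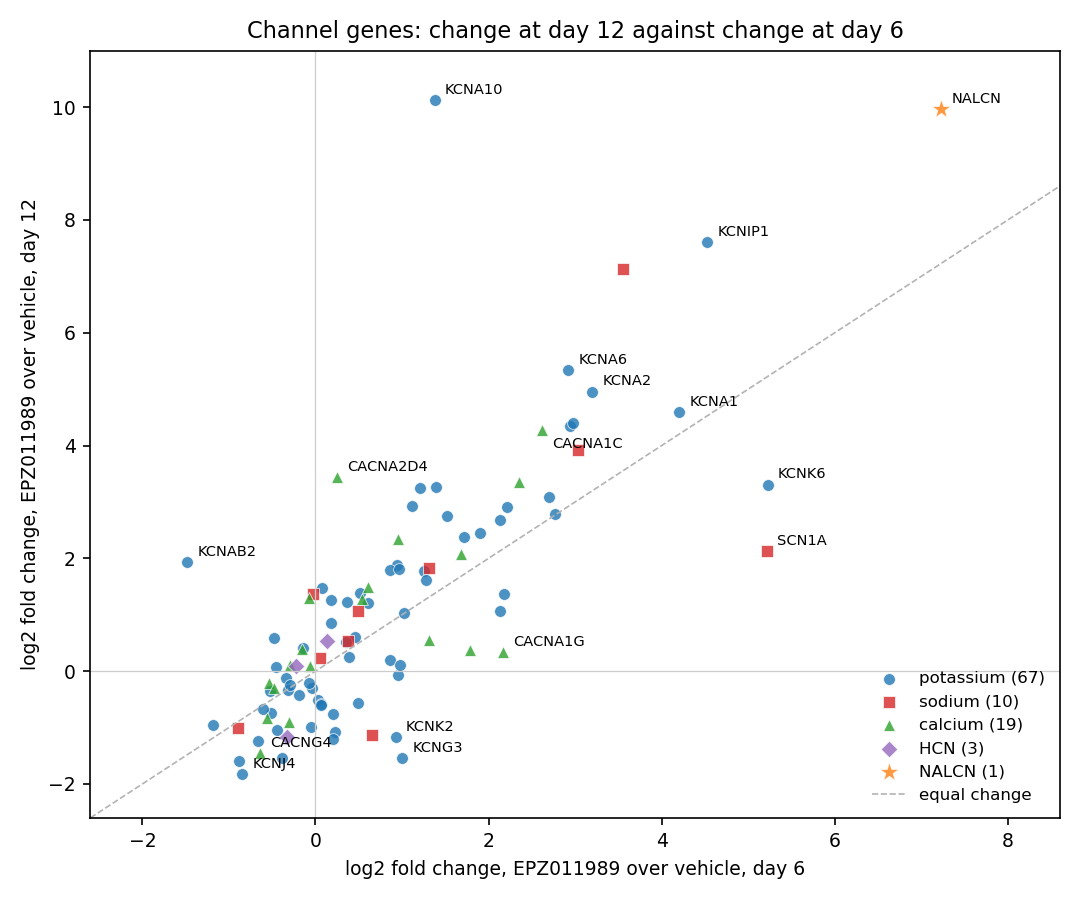
Log2 fold change of EPZ011989 over vehicle at day 6 (x axis) and at day 12 (y axis) for the 100 tested channel genes, with 1 point per gene, coloured by ion, and the dashed line marking equal change. NALCN and KCNA10 sit at the top, both without a read in vehicle at day 12, so their fitted values are not sizes, and KCNG3 and KCNK2 sit below 0 at day 12 and above 0 at day 6.

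Of the 9 leak channel genes tested, NALCN and the K2P genes together, 7 were higher and none lower at day 6, and 6 were higher and 1 lower at day 12. Of these 9, 5 passed the filter only through EPZ011989 libraries, NALCN, KCNK1, KCNK4, KCNK6 and KCNK10, and 4 of the 5 were called higher at each day. The 4 that pass on vehicle libraries alone gave 3 higher and none lower at day 6, and 2 higher and 1 lower at day 12. Of all tested genes, 17.1% were higher and 17.0% lower at day 6, and 33.7% and 33.2% at day 12. NALCN, the pore of the sodium leak channel, lies on chromosome 13 from 101053776 to 101416492 on the minus strand. It had 1.08, 0.705 and 1.33 CPM in EPZ011989 and no read in the 3 vehicle libraries at day 6. At day 12 it had 9.67, 3.57 and 7.64 CPM in EPZ011989 and again no read in the 3 vehicle libraries. No treated library overlapped a vehicle library at either day. Against a floor of 3 reads per library, NALCN was at least 6.39-fold higher at day 6 and at least 37.7-fold higher at day 12, with edgeR adjusted p of 0.000364 and 2.57e-06. It was higher at day 12 within EPZ011989 by 2.73 ± 0.45 log2 units (SE), with an edgeR adjusted p of 0.000396. The difference of the day effects has no interpretable size, because vehicle was at 0 at both days. Per transcript length NALCN stayed low, at 3.13 ± 1.41 TPM (a level scaled for transcript length and library, SD, n = 3) in EPZ011989 at day 12, and an antisense gene, NALCN-AS1, overlaps it.

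NALCN works with the large scaffold proteins UNC79 and UNC80 and with a FAM155 subunit. UNC79 had 109, 105 and 101 CPM in EPZ011989 and 77.5, 74.0 and 77.6 CPM in vehicle at day 12, a log2 fold change of 0.46 ± 0.05 (SE, edgeR adjusted p = 2.49e-06). UNC80 had a log2 fold change of 0.67 ± 0.13 at day 12 (edgeR adjusted p = 0.000501), although the summed reads hold 0.525 of its level in the authors' table. FAM155B rose by 0.37 ± 0.11 on the log2 scale at day 12 (edgeR adjusted p = 0.00975). FAM155A did not pass the filter, with 3, 4 and 3 reads in EPZ011989 and 1, 0 and 0 reads in vehicle at day 12. UNC79, UNC80 and FAM155B were thus present in vehicle libraries, beside a pore gene with no read there.

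Of the 15 K2P genes, 8 were tested, and 6 were higher and none lower at day 6. At day 12, 5 were higher and 1 was lower. KCNK3 encodes TASK-1, an acid-sensitive leak channel, and had 44.9, 47.8 and 44.1 CPM in EPZ011989 against 24.1, 26.9 and 24.4 CPM in vehicle at day 6. At day 12 it had 78.3, 82.1 and 81.0 CPM in EPZ011989 against 19.2, 25.2 and 24.9 CPM in vehicle. The groups did not overlap at either day, and the effect was larger at day 12 by 0.94 ± 0.13 log2 units (edgeR adjusted p = 3.3e-05). KCNK9, its close relative TASK-3, had 19.4, 16.4 and 22.7 CPM in EPZ011989 against 2.54, 3.26 and 2.80 CPM in vehicle at day 6, and 21.8, 24.8 and 23.9 CPM in EPZ011989 against 2.90, 3.42 and 3.87 CPM in vehicle at day 12. Its log2 fold change was 2.77 ± 0.16 at day 6 and 2.79 ± 0.15 at day 12. The difference between the days was 0.03 ± 0.22 log2 units and was not called (edgeR adjusted p = 0.94). KCNK1, the weak inward-rectifying channel TWIK-1, reached 4.61, 4.62 and 5.17 CPM in EPZ011989 at day 12, against 0.258, 0 and 0.451 CPM in vehicle.

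KCNK6, the related TWIK-2, had 1.32, 1.35 and 2.14 CPM in EPZ011989 and 0, 0.0543 and 0.0528 CPM in vehicle at day 6, a ratio of 44.2 with a 95% counting interval of 11.9 to 371. At day 12 the ratio was 10.4, with an interval of 4.55 to 29.2. The change between days was not called (edgeR adjusted p = 0.145). KCNK2, the mechanically and thermally gated TREK-1, went both ways. It had 7.89, 8.98 and 8.25 CPM in EPZ011989 against 4.53, 4.56 and 4.12 CPM in vehicle at day 6. By day 12 KCNK2 had 2.97, 2.76 and 2.25 CPM in EPZ011989 against 6.18, 4.71 and 7.15 CPM in vehicle. All treated libraries were above vehicle at day 6 and below it at day 12, and the difference of the effects was -2.10 ± 0.27 log2 units (edgeR adjusted p = 2.14e-05). On the authors' table limma did not call the day 6 rise (0.96, adjusted p = 0.0667) and called the difference (-1.98, adjusted p = 0.00693). Summed over the 15 genes, K2P channels stood at 40.2 ± 3.1 TPM in EPZ011989 and 15.3 ± 2.3 TPM in vehicle at day 6, and at 59.2 ± 3.1 TPM in EPZ011989 and 18.9 ± 4.6 TPM in vehicle at day 12 (SD, n = 3 each).

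**Figure D2:**
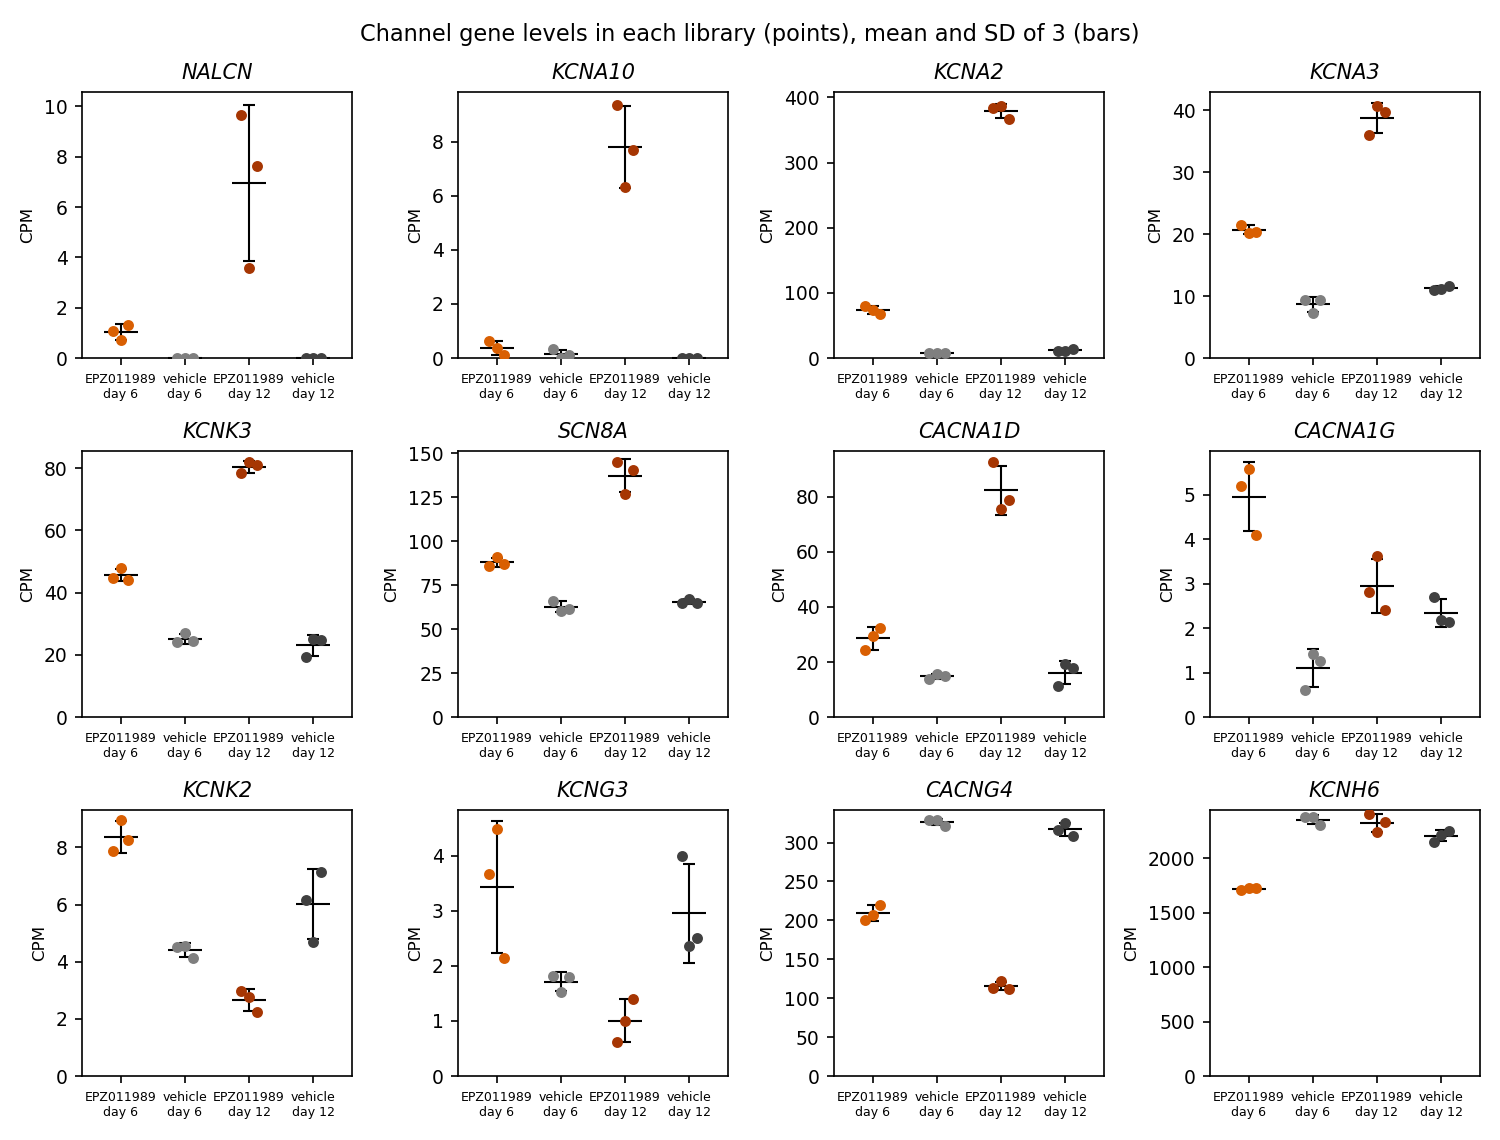
CPM of 12 channel genes in each library (points), with the mean and SD of the 3 libraries of a group (bars), from EPZ011989 and vehicle at day 6 to EPZ011989 and vehicle at day 12. NALCN and KCNA10 are at or near 0 in vehicle, KCNA2 reaches 366 to 386 CPM in EPZ011989 at day 12, and KCNK2 and KCNG3 are above vehicle at day 6 and below it at day 12.

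Potassium channels as a whole gave 29 higher and 10 lower of 67 tested genes at day 6, and 34 higher and 15 lower at day 12. The 52 that pass the filter on vehicle libraries alone gave 21 higher and 10 lower at day 6, and 25 higher and 15 lower at day 12. Of the 34, 25 were already higher at day 6 and 9 were not. Over all tested genes, 1977 of the 5059 higher at day 12 were also higher at day 6. The 34 include 9 genes that passed the filter only through EPZ011989 libraries. The Kv1 family, the KCNA genes, held several of the larger rises. Its channels activate at low voltage and restrain repetitive firing. Of the 25 tested pore-forming voltage-gated genes, 17 were higher and 7 lower at day 12, and 12 and 6 at day 6. Of all tested genes, 33.7% were higher and 33.2% lower at day 12, and 17.1% and 17.0% at day 6.

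KCNA2, a main Kv1 subunit of axons, lies on chromosome 1 from 110519837 to 110631474 on the minus strand. It had 79.6, 73.2 and 67.7 CPM in EPZ011989 against 8.28, 8.04 and 7.76 CPM in vehicle at day 6. By day 12 KCNA2 had 383, 386 and 366 CPM in EPZ011989 against 11.5, 10.5 and 14.6 CPM in vehicle. The groups were far apart at both days, with a log2 fold change of 3.19 ± 0.10 at day 6 and 4.96 ± 0.10 at day 12 (SE). The effect grew by 1.76 ± 0.14 log2 units between the days (edgeR adjusted p = 1.53e-07). Vehicle itself was higher at day 12 than at day 6, by 0.60 log2 units (edgeR adjusted p = 0.0103). Salmon's estimates place all vehicle reads of day 6 on 1 transcript, KCNA2-201, while KCNA2-205, which starts 733 bases upstream, had 505, 529 and 459 estimated reads in EPZ011989 at day 6 and 3073, 3114 and 2150 at day 12, and none in the 6 vehicle libraries. In vehicle at day 12, KCNA2-201 had 89, 187 and 0 estimated reads. There KCNA2-209, which also starts upstream of KCNA2-201, had 90, 0 and 79. Such splits between transcripts that share exons are estimates.

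KCNA10, KCNA2 and KCNA3 lie next to each other on chromosome 1, all on the minus strand. KCNA10, a Kv1 channel regulated by cyclic nucleotides, starts 662 bases beyond the annotated end of KCNA2, and KCNA3, the Kv1 channel best known from T lymphocytes, lies 41.0 kb away on the other side. KCNA10 had 0.637, 0.385 and 0.115 CPM in EPZ011989 against 0.331, 0 and 0.106 CPM in vehicle at day 6, where the groups overlapped and the gene was not called (edgeR adjusted p = 0.207). At day 12 it had 9.36, 6.33 and 7.70 CPM in EPZ011989 and no read in vehicle. It was then at least 42.2-fold higher (edgeR adjusted p = 2.33e-06), and its effect differed between the days (edgeR adjusted p = 0.00103). KCNA3 had 36.0, 40.7 and 39.8 CPM in EPZ011989 against 11, 11.2 and 11.7 CPM in vehicle at day 12, a log2 fold change of 1.78 ± 0.10, and it was called higher at day 6 as well. The tested neighbours RBM15, SLC16A4 and LAMTOR5 were not called at either day. Beyond them, 234.1 kb from KCNA10, lies another channel gene, KCNC4, which was called higher at both days. Whether reads that run past the end of KCNA2 add to KCNA10 was not tested: KCNA10 had 0.379 CPM in EPZ011989 at day 6, when KCNA2 had 73.5, and 7.80 CPM at day 12, when KCNA2 had 378.

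KCNA1 and KCNA6 lie 96.5 kb apart on chromosome 12. KCNA1, mutated in episodic ataxia, had 7.40, 7.5 and 6.41 CPM in EPZ011989 against 0.442, 0.380 and 0.317 CPM in vehicle at day 6, and 14.3, 18.3 and 15.3 CPM in EPZ011989 against 0.451, 0.560 and 0.966 CPM in vehicle at day 12. Its log2 fold change was 4.20 ± 0.26 at day 6 and 4.59 ± 0.24 at day 12, with no called difference between the days (edgeR adjusted p = 0.467). KCNA6 had 16, 23 and 24 reads in EPZ011989 and 0, 0 and 1 in vehicle at day 12, a ratio of 53.8 with a 95% counting interval of 9.32 to 2159. KCNA4, the fast-inactivating member of the family, was lower instead: 5.94, 4.98 and 5.28 CPM in EPZ011989 against 12.9, 13.5 and 11.7 CPM in vehicle at day 12, a change of -1.23 ± 0.15 log2 units (edgeR adjusted p = 3.17e-06). Thus 5 of the 6 KCNA genes tested were higher at day 12 and 1 was lower. Of all tested genes, 33.7% were higher and 33.2% lower then. KCNA1, KCNA6 and KCNA10 passed the filter only through EPZ011989 libraries. Of the KCNA genes that pass on vehicle libraries alone, KCNA2 and KCNA3 were higher and KCNA4 was lower.

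The KCNQ genes encode Kv7 channels, which carry the slow M-current that damps excitability. KCNQ3, a subunit of M-current channels, had 94.6, 87.9 and 95.3 CPM in EPZ011989 against 196, 191 and 189 CPM in vehicle at day 12. It fell at both days, by 0.45 ± 0.04 and 1.05 ± 0.04 on the log2 scale, and fell further at day 12 (difference -0.60 ± 0.06, edgeR adjusted p = 2.31e-06). KCNQ1 was higher at day 12 by 0.85 ± 0.12 log2 units (edgeR adjusted p = 1.95e-05) and not called at day 6. Between the days KCNQ1 had a log2 fold change of 0.13 ± 0.12 within EPZ011989 (edgeR adjusted p = 0.354) and of -0.54 ± 0.12 within vehicle (edgeR adjusted p = 0.017).

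The ERG genes KCNH2, KCNH6 and KCNH7 encode channels that inactivate fast and close slowly. KCNH6 was the most abundant channel RNA in every group. It had 1705, 1728 and 1725 CPM in EPZ011989 against 2384, 2376 and 2311 CPM in vehicle at day 6. At day 12 it had 2404, 2241 and 2337 CPM in EPZ011989 against 2154, 2218 and 2251 CPM in vehicle. It fell by 0.46 ± 0.03 log2 units at day 6 (edgeR adjusted p = 8.11e-08), while at day 12 the groups overlapped and the log2 fold change was 0.08 ± 0.03 (edgeR adjusted p = 0.0492), a call that was lost in the fit of the day 12 libraries alone. Per length it stood at 877 ± 2 TPM in EPZ011989 and 1145 ± 32 TPM in vehicle at day 6, and at 1263 ± 63 TPM in EPZ011989 and 1128 ± 14 TPM in vehicle at day 12. It made up 42.6% of all channel TPM in EPZ011989 and 53.4% in vehicle at day 6, and 43.4% in EPZ011989 and 53.6% in vehicle at day 12. KCNH7 rose at both days, with 244, 234 and 216 CPM in EPZ011989 against 39.6, 37.9 and 31.2 CPM in vehicle at day 12, a log2 fold change of 2.67 ± 0.09. KCNH2, the cardiac hERG channel, fell at both days, by 0.60 ± 0.09 and 0.67 ± 0.09 log2 units (edgeR adjusted p = 9.19e-05 and 9.51e-06). The ERG genes thus went in different directions.

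Of the fast Kv3 and Kv4 genes, KCNC4 had 315, 310 and 294 CPM in EPZ011989 against 125, 132 and 142 CPM in vehicle at day 12, and its effect was larger than at day 6 by 0.59 ± 0.07 log2 units (edgeR adjusted p = 6.12e-06). KCNC1, the Kv3 channel of fast-firing neurons, fell at day 12 by 0.74 log2 units (edgeR adjusted p = 4.59e-06). KCND3, an A-type Kv4 channel, had 4.20, 4.32 and 4.72 CPM in EPZ011989 against 0.386, 0.392 and 0.580 CPM in vehicle at day 12. KCNIP1, a calcium-binding partner of Kv4, had 27, 32 and 19 reads in EPZ011989 and none in vehicle at day 12, at least 7.32-fold higher (edgeR adjusted p = 0.000665). The Kv4 partner DPP6 fell by 1.27 ± 0.09 log2 units at day 12 (edgeR adjusted p = 1.7e-08), so Kv4 accessory genes did not move one way. Without KCNH6, the 29 other pore-forming Kv genes summed to 302 ± 7 TPM in EPZ011989 and 234 ± 1 TPM in vehicle at day 6. At day 12 they summed to 541, 554 and 448 TPM in EPZ011989 and to 233, 233 and 237 TPM in vehicle, so the treated libraries were uneven and all above vehicle.

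Electrically silent subunits make no channel alone and alter Kv2 channels when they assemble with them. Of 6 tested, 4 were higher at each day, where 17.1% of all tested genes were at day 6 and 33.7% at day 12. At day 12, 2 were lower, where 33.2% of all tested genes were. KCNG1 had 91.8, 91.3 and 95.7 CPM in EPZ011989 against 28.5, 29 and 27.7 CPM in vehicle at day 6. It had 137, 138 and 146 CPM in EPZ011989 against 26.6, 26.2 and 27.7 CPM in vehicle at day 12, and the effect was larger then by 0.68 ± 0.08 log2 units (edgeR adjusted p = 5.31e-06). KCNG1 was the silent subunit with the highest TPM, at 155 ± 2 TPM in EPZ011989 and 25.4 ± 1.5 TPM in vehicle at day 12. KCNG3 changed direction: 3.67, 4.49 and 2.14 CPM in EPZ011989 against 1.82, 1.52 and 1.80 CPM in vehicle at day 6, then 0.614, 1.00 and 1.41 CPM in EPZ011989 against 3.99, 2.35 and 2.51 CPM in vehicle at day 12. The groups did not overlap at either day, and the difference of the effects was -2.55 ± 0.52 log2 units (edgeR adjusted p = 0.00106). Its rise at day 6 had an edgeR adjusted p of 0.0456 and was not called on the authors' table, where limma gave a log2 fold change of 0.96. KCNS3 fell at day 12 by 1.54 ± 0.21 log2 units (edgeR adjusted p = 1.34e-05) and was not called at day 6. KCNB2, a Kv2 gene with whose product silent subunits assemble, was higher at day 12 by 0.61 log2 units. The silent class summed to 117 ± 3 TPM in EPZ011989 and 49.3 ± 3.6 TPM in vehicle at day 6, and to 191 ± 2 TPM in EPZ011989 and 47.5 ± 2.1 TPM in vehicle at day 12.

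Calcium-activated potassium channels link calcium entry to repolarization. KCNMA1, the pore of the large-conductance BK channel, had 70.2, 70.3 and 70.0 CPM in EPZ011989 against 26.1, 25.2 and 29.6 CPM in vehicle at day 12, a log2 fold change of 1.38 ± 0.08 beside 0.52 ± 0.07 at day 6, where limma did not call it on the authors' table (adjusted p = 0.0779). KCNMB2, its inactivating beta subunit, rose too, with 62.4, 60.7 and 63.4 CPM in EPZ011989 against 16.8, 21.0 and 15.4 CPM in vehicle at day 12. Its effect was larger at day 12 by 0.84 ± 0.14 log2 units, close to the 0.87 ± 0.11 of KCNMA1. KCNMB4 was higher at day 6 by 0.97 log2 units (edgeR adjusted p = 0.00627) and had 0.10 at day 12 (edgeR adjusted p = 0.719). LRRC38, a gamma subunit that shifts BK gating, fell by 2.75 ± 0.19 log2 units at day 12 (edgeR adjusted p = 6.88e-09), while LRRC26, another gamma subunit, rose by 1.23 ± 0.22 (edgeR adjusted p = 0.000205). KCNN1, a small-conductance SK channel, had 10.8, 12.2 and 11.3 CPM in EPZ011989 against 1.80, 1.18 and 1.55 CPM in vehicle at day 12, and a log2 fold change of 2.93 ± 0.20 beside 1.12 ± 0.19 at day 6. Between the days it was higher within EPZ011989 by 0.63 ± 0.18 log2 units (edgeR adjusted p = 0.00729), while vehicle was lower at day 12, the change being -1.18 ± 0.21 log2 units (edgeR adjusted p = 0.00804). KCNN4, the intermediate-conductance channel, was called lower at both days, with 0.870, 0.704 and 0.899 CPM in EPZ011989 against 2.77, 1.68 and 3.03 CPM in vehicle at day 12. On the authors' table limma called KCNN4 at neither day (adjusted p = 0.392 at day 6 and 0.0664 at day 12), and with the replicate block the day 6 call was lost (edgeR adjusted p = 0.0575). At day 12 the BK pore thus rose with KCNMB2 and LRRC26, while LRRC38 fell and KCNMB4 was not called. KCNMB3 was lower by edgeR (log2 fold change -1.20, adjusted p = 0.0154) and not called on the authors' table (-0.83, limma adjusted p = 0.174).

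Inward rectifiers, which are not gated by voltage sensors, gave 1 higher and 1 lower of 10 tested at each day, the same genes at both. Over all tested genes 17.1% were higher and 17.0% lower at day 6, and 33.7% and 33.2% at day 12. KCNJ6, a G protein-gated GIRK channel, had 7.16, 5.28 and 6.57 CPM in EPZ011989 against 0.515, 1.01 and 1.29 CPM in vehicle at day 12, a log2 fold change of 2.75 ± 0.29. KCNJ4, a strong rectifier, had 3.22, 4.42 and 4.83 CPM in EPZ011989 against 13.3, 16.6 and 14.4 CPM in vehicle at day 12. It fell by 1.83 ± 0.17 log2 units there and by 0.84 ± 0.15 at day 6 (edgeR adjusted p = 2.05e-07 and 0.000645). KCNJ12 and KCNJ18 are near-identical copies between which reads may be split, and KCNJ12 was not called. This class summed to 11.7 ± 0.8 TPM in EPZ011989 and 21.2 ± 1.5 TPM in vehicle at day 12.

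Sodium channel genes gave 5 higher and none lower of 10 tested at day 6, and 6 higher and 1 lower at day 12. Of all tested genes, 17.1% were higher and 17.0% lower at day 6, and 33.7% and 33.2% at day 12. Of the 10, 3 passed the filter only through EPZ011989 libraries and all 3 were called higher at both days, and the 7 others gave 2 higher at day 6, and 3 higher and 1 lower at day 12. SCN8A, which encodes Nav1.6 of the axon initial segment, carried most of the pore-forming RNA, with 74.5% of the class TPM in EPZ011989 and 86.4% in vehicle at day 6, and 80.7% in EPZ011989 and 78.1% in vehicle at day 12. It had 86.2, 91.1 and 87.2 CPM in EPZ011989 against 66.3, 60.2 and 61.6 CPM in vehicle at day 6, and 145, 127 and 140 CPM in EPZ011989 against 65.1, 67.2 and 64.9 CPM in vehicle at day 12. The groups did not overlap, and the log2 fold change grew by 0.57 ± 0.08, with 0.49 ± 0.06 at day 6 and 1.06 ± 0.06 at day 12 (edgeR adjusted p of the difference = 6.77e-05). SCN3A, the Nav1.3 channel of embryonic neurons, had 11.5, 12.9 and 11.8 CPM in EPZ011989 against 0.772, 1.18 and 0.387 CPM in vehicle at day 12, a log2 fold change of 3.92 ± 0.32. SCN1A had 2.25, 4.04 and 4.56 CPM in EPZ011989 against 0, 0.272 and 0 CPM in vehicle at day 6, where the reads gave a ratio of 39.1 (95% counting interval 16.5 to 121.8). SCN1A at day 12 had 2.10, 1.31 and 2.58 CPM in EPZ011989 against 0.901, 0.448 and 0 CPM in vehicle, a change of 2.13 ± 0.78 log2 units (edgeR adjusted p = 0.0253). Its summed reads hold 0.371 of its level in the authors' table, where it was not called at day 12. SCN9A, an abundant channel of sensory neurons, was at 4.17 to 6.99 CPM in EPZ011989 and not called.

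The sodium channel beta subunits are single-span adhesion proteins that tune the pore. SCN3B, a beta subunit, had 52.1, 49.1 and 50.8 CPM in EPZ011989 against 45.6, 34.8 and 24.4 CPM in vehicle at day 12, a change of 0.54 ± 0.21 log2 units (edgeR adjusted p = 0.0373). That call was lost with DESeq2 (adjusted p = 0.0735) and with the replicate block (edgeR adjusted p = 0.0532). It was lost without any of the 3 EPZ011989 libraries or without library 2 or 3 of vehicle at day 12, and the change was 0.35 without library 3 of vehicle. SCN4B was lower at day 12 (log2 fold change -1.0, edgeR adjusted p = 0.0197). Pore-forming sodium channels summed to 37.8 ± 2.2 TPM in EPZ011989 and 15.8 ± 4.2 TPM in vehicle at day 12. Among intracellular partners of sodium channels, FGF14 rose at both days, by 1.10 ± 0.06 and 1.05 ± 0.05 log2 units, and ANK3, the ankyrin that anchors them at the axon initial segment, by 2.71 ± 0.35 and 2.65 ± 0.33. Neither partner had a called difference between the days (edgeR adjusted p = 0.604 and 0.926).

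Calcium channel genes gave 9 higher and 5 lower of 19 tested at day 6, and 9 higher and 3 lower at day 12. The 17 that pass the filter on vehicle libraries alone gave 9 higher and 5 lower at day 6, and 7 higher and 3 lower at day 12. Of 9 pore-forming genes tested, 6 were higher at each day and none was lower at day 12. Of all tested genes, 17.1% were higher and 17.0% lower at day 6, and 33.7% and 33.2% at day 12. CACNA1D, an L-type channel that opens at low voltage, had 24.2, 29.4 and 32.3 CPM in EPZ011989 against 13.9, 15.7 and 14.8 CPM in vehicle at day 6. By day 12 CACNA1D had 92.6, 75.7 and 78.7 CPM in EPZ011989 against 11.4, 19.3 and 17.7 CPM in vehicle, and the effect was larger than at day 6 by 1.40 ± 0.22 log2 units (edgeR adjusted p = 0.000128). CHDH overlaps it on the other strand and moved the other way, with 31.4 CPM in EPZ011989 and 96.5 CPM in vehicle at day 12. CACNA1C, the L-type channel of heart and smooth muscle, had 22.5, 17.8 and 22.5 CPM in EPZ011989 against 1.29, 0.785 and 1.16 CPM in vehicle at day 12. Its log2 fold change was 2.61 ± 0.20 at day 6 and 4.28 ± 0.20 at day 12, but the growth between days was not called on the authors' table (0.20 ± 0.76, limma adjusted p = 0.86) and was -0.14 with transcript lengths as an offset. CACNA1A, the P/Q-type channel of nerve terminals and the pore-forming calcium channel gene with most CPM, had 214, 227 and 222 CPM in EPZ011989 against 64.5, 80.7 and 91.9 CPM in vehicle at day 12. Vehicle was itself lower there than at day 6, by 0.32 log2 units (edgeR adjusted p = 0.0373). CACNA1B, the N-type channel, was lower at day 6 by 0.29 log2 units (edgeR adjusted p = 0.00427) and had 0.10 at day 12 (edgeR adjusted p = 0.187).

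The T-type genes, whose channels open near rest, had an early rise that differed between them. CACNA1G had 5.19, 5.58 and 4.10 CPM in EPZ011989 against 0.608, 1.41 and 1.27 CPM in vehicle at day 6. CACNA1G at day 12 had 2.81, 3.62 and 2.42 CPM in EPZ011989 against 2.70, 2.19 and 2.13 CPM in vehicle, where the groups overlapped. Its effect was smaller at day 12 by 1.83 ± 0.43 log2 units, so the difference was negative (-1.83, edgeR adjusted p = 0.00295), with EPZ011989 lower at day 12 than at day 6 and vehicle higher. CACNA1I likewise had log2 fold changes of 1.31 ± 0.17 at day 6 and 0.55 ± 0.16 at day 12 (difference -0.76 ± 0.23, edgeR adjusted p = 0.0147). CACNA1H, in contrast, had 34.7, 36.1 and 34.5 CPM in EPZ011989 against 7.27, 7.79 and 9.79 CPM in vehicle at day 12, and log2 fold changes of 1.68 ± 0.11 and 2.08 ± 0.11. Its effect was larger at day 12, with a difference of 0.41 ± 0.15 (edgeR adjusted p = 0.0413).

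Accessory calcium channel genes split by subunit. CACNA2D2, an alpha2delta subunit that brings the pore to the membrane, had 210, 207 and 223 CPM in EPZ011989 against 79.7, 88.0 and 96.8 CPM in vehicle at day 12, a log2 fold change of 1.27 ± 0.06 beside 0.54 ± 0.06 at day 6. CACNA2D1 fell at both days, by 0.30 and 0.90 log2 units (edgeR adjusted p = 0.00242 and 1.84e-08). CACNA2D4, known from the retina, was a late riser: 0.784, 0.962 and 0.577 CPM in EPZ011989 against 0.552, 0.815 and 0.581 CPM in vehicle at day 6, then 3.94, 3.02 and 3.82 CPM in EPZ011989 against 0.129, 0.448 and 0.387 CPM in vehicle at day 12. CACNB3, the most abundant beta subunit by TPM, fell at both days, by 0.48 ± 0.07 and 0.30 ± 0.07 log2 units. CACNB1 fell at day 6 by 0.54 ± 0.18 log2 units (edgeR adjusted p = 0.0346), but by 0.16 and without a call on the authors' table (limma adjusted p = 0.741), and CACNB4 was higher at day 6, where edgeR gave a log2 fold change of 1.79 (adjusted p = 0.000396), and was not called at day 12. CACNG4, which belongs to the TARP subunits that traffic AMPA receptors, had 200, 207 and 220 CPM in EPZ011989 against 329, 329 and 322 CPM in vehicle at day 6. By day 12 CACNG4 had 113, 121.5 and 112 CPM in EPZ011989 against 317, 325 and 309 CPM in vehicle, and it fell further then (difference -0.81 ± 0.06, edgeR adjusted p = 1.41e-07). CACNG2, the TARP stargazin, rose at both days, with 7.21, 6.89 and 8.15 CPM in EPZ011989 against 0.837, 0.560 and 0.773 CPM in vehicle at day 12. REM1 and REM2, GTPases that restrain these channels, rose at day 12 by 4.48 ± 0.55 and 3.63 ± 0.27 log2 units (edgeR adjusted p = 4.47e-06 and 2.23e-08) and were not called at day 6.

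**Figure D3:**
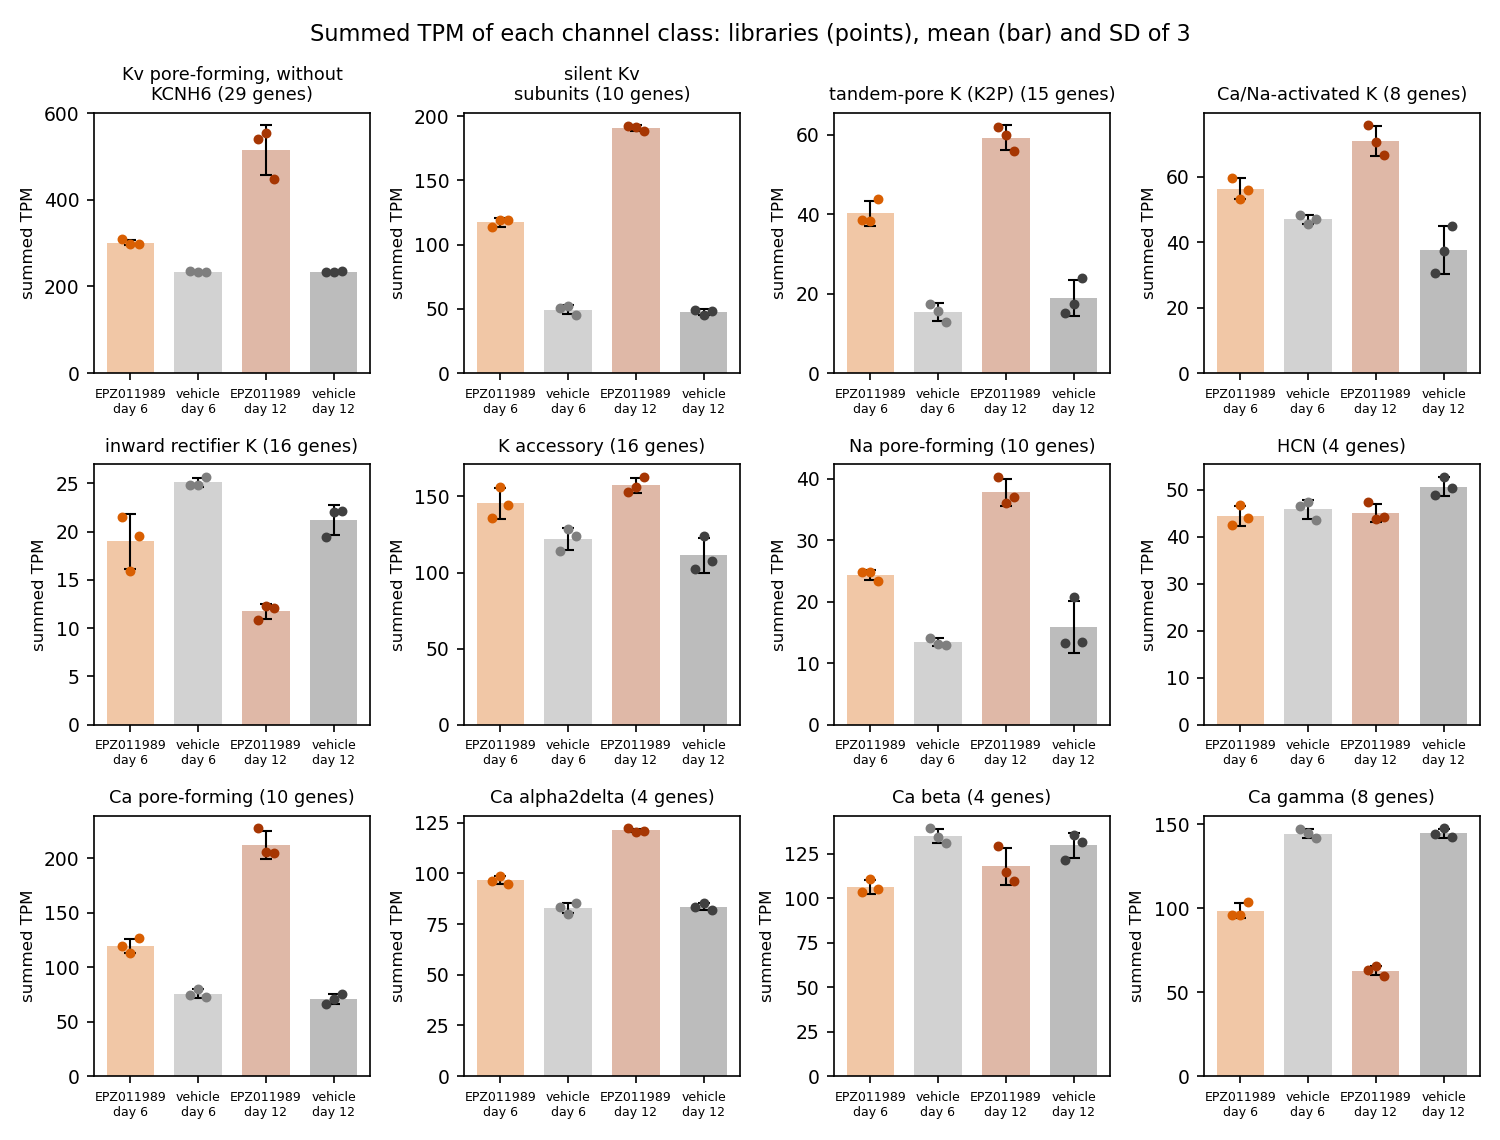
Summed TPM of 12 channel classes in every library (points), with the mean (bar) and SD of 3 libraries, in EPZ011989 and vehicle at day 6 and at day 12. The silent Kv subunits reach 191 TPM in EPZ011989 against 47.5 TPM in vehicle at day 12, and the gamma subunits 62.7 TPM in EPZ011989 against 145 TPM in vehicle.

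HCN channels, which open on hyperpolarization and carry pacemaker current, changed in opposite directions. HCN3 had 33.2, 37.8 and 39.0 CPM in EPZ011989 against 45.8, 49.1 and 43.7 CPM in vehicle at day 6, and 21.8, 25.5 and 21.1 CPM in EPZ011989 against 50.7, 48.4 and 53.7 CPM in vehicle at day 12. Its log2 fold change was -0.33 ± 0.09 at day 6 and -1.16 ± 0.09 at day 12, a difference of -0.83 ± 0.12 (edgeR adjusted p = 7.72e-05). HCN2 rose at day 12 by 0.53 log2 units (edgeR adjusted p = 0.000166) and HCN4 was not called. Summed, the 4 HCN genes stood at 45.1 ± 1.9 TPM in EPZ011989 and 50.6 ± 2.0 TPM in vehicle at day 12.

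In timing, 38 of the 100 tested channel genes were called higher at both days, where 13.2% of all tested genes were, and 13 were called higher at day 12 and not at day 6, where 20.5% of all genes were. The test of the difference between the day effects found 30 channel genes with a more positive and 19 with a more negative effect at day 12, beside 22.6% and 25.1% of all tested genes. Of the 51 channel genes higher at day 12, 29 had a larger effect then than at day 6, and 1, CACNA1I, had a smaller one. Over all tested genes, 60.3% of those higher at day 12 had a larger effect then. Of the 13 genes called higher at day 12 and not at day 6, 8 passed the test of the difference, KCNA10 and CACNA2D4 among them. Both counts include KCNAB2 and KCNH6, which were called lower at day 6. Among the 13, KCNA10, CACNA2D4 and KCNIP1 passed the filter only through EPZ011989 libraries. For the 8, no share over all tested genes was counted. The CACNA2D4 difference was not called with transcript lengths (edgeR adjusted p = 0.0554) or by limma on the authors' table without a filter (adjusted p = 0.05375). A further 6 genes were higher at day 6 and not at day 12: CACNA1G, CACNB4, KCNMB4, KCNE2, KCNG3 and KCNK2. Within EPZ011989, 37 channel genes were higher and 24 lower at day 12 than at day 6, beside 27.8% and 29.8% of all tested genes. Within vehicle, 6 were higher and 6 lower at day 12, beside 5.96% and 7.15%. That last count moved between 0 and 10 higher and between 1 and 11 lower when single libraries were left out. Without library 3 of vehicle at day 12 it was 10 higher and 11 lower, without library 1 it was 2 and 2, and without library 3 of vehicle at day 6 it was 0 and 1.

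Some of these calls rest on single libraries. Of the 12 fits that left out 1 library each, the day 6 call was lost in 5 for CACNB1, 6 for KCNN4, 6 for KCNG3, 4 for KCNK1, 2 for HCN3 and 8 for KCNAB2. The day 12 call was lost in 7 for KCNH6, 4 for SCN1A and 2 for KCNMB3, and the difference between the days in 8 for KCNMB3 and 7 for KCNA4. KCNK1 at day 6 and KCNA4 in its difference were also not called by limma on the authors' table.

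By ion, the count called higher at both days was 25 of 67 potassium, 5 of 10 sodium and 7 of 19 calcium genes, with NALCN besides and no HCN gene. The share over all tested genes was 13.2%. The groups of genes were not tested against each other. Genes called with opposite signs at the 2 days were KCNG3, KCNK2, KCNH6 and KCNAB2, 4 of 100, beside 2.58% of all tested genes. KCNAB2, a beta subunit of Kv1 channels, had 4.65, 0.513 and 2.08 CPM in EPZ011989 against 3.65, 10.3 and 6.76 CPM in vehicle at day 6, and 9.67, 12.5 and 9.16 CPM in EPZ011989 against 1.35, 2.75 and 4.06 CPM in vehicle at day 12. The groups overlapped at day 6. Its summed reads hold 0.162 of its level in the authors' table, where limma gave -0.17 ± 0.24 at day 6 (adjusted p = 0.654) and 1.74 ± 0.24 at day 12 (adjusted p = 2.13e-05). Summed over all 140 genes except KCNH6, channel RNA stood at 1184 ± 11 TPM in EPZ011989 and 1000 ± 13 TPM in vehicle at day 6, and at 1644 ± 79 TPM in EPZ011989 and 978 ± 32 TPM in vehicle at day 12.

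**Figure D4:**
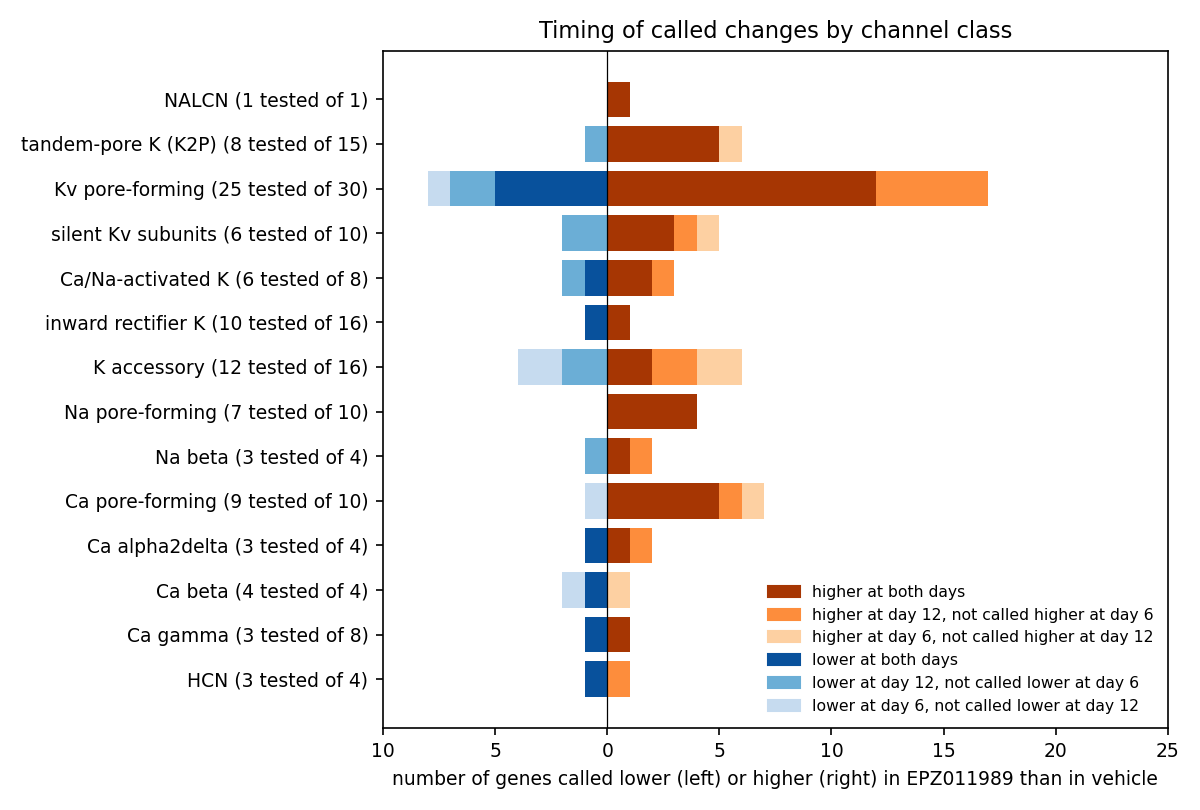
Number of tested genes in each channel class that were called higher (bars to the right) or lower (bars to the left) in EPZ011989 than in vehicle, shaded by the day of the call, with the number tested in each label. The 12 pore-forming Kv genes higher at both days form the longest block, and the 4 genes with opposite calls at the days, such as KCNK2, appear on both sides.

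Other cell types were looked for among marker genes. Keratinocyte markers summed to 5.63 to 7.74 CPM in EPZ011989 and 5.41 to 6.89 CPM in vehicle at day 12, and endothelial markers to 2.35 to 3.32 CPM in EPZ011989 and 2.00 to 3.35 CPM in vehicle. Leukocyte markers, 2 of 6 of them at 1 CPM or more, summed to 1.91 to 2.46 CPM in EPZ011989 and 5.92 to 6.51 CPM in vehicle at day 12. Fibroblast markers, 3 of 6 at 1 CPM or more, summed to 17.9 to 19.4 CPM in EPZ011989 and 9.66 to 14.5 CPM in vehicle. Muscle markers, 2 of 6 at 1 CPM or more, summed to 20.4 to 28.7 CPM in EPZ011989 and 1.91 to 2.00 CPM in vehicle at day 12. Glial markers, 4 of 6 at 1 CPM or more, summed to 18.8 to 25.1 CPM in EPZ011989 and 8.24 to 10.7 CPM in vehicle. KRT1 and IVL were at 0 in all 12 libraries. The glial marker S100B and the muscle marker MYH7 were at 0 in 3 of the 4 groups, with means of 0.0545 and 0.0512 CPM in EPZ011989 at day 12. The part of these cell types in the channel results was not tested.

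Beyond the channel families, 38 of 49 partner and related genes were tested. Of the 38, 10 were higher and 5 lower at day 6, and 19 higher and 7 lower at day 12. Of all tested genes, 17.1% were higher and 17.0% lower at day 6, and 33.7% and 33.2% at day 12. CLCN4, an endosomal chloride-proton exchanger, had 46.9, 42.7 and 41.9 CPM in EPZ011989 against 0.644, 2.80 and 1.55 CPM in vehicle at day 12, a change of 4.68 ± 0.29 log2 units (edgeR adjusted p = 2.37e-09). Its relative CLCN5 went the other way, with 107, 108 and 99.8 CPM in EPZ011989 against 347, 351 and 324 CPM in vehicle at day 12, a change of -1.70 ± 0.05 log2 units (edgeR adjusted p = 3.9e-13). TPCN1, an endolysosomal cation channel, had 205, 187 and 201 CPM in EPZ011989 against 59.9, 70.3 and 74.7 CPM in vehicle at day 12, a log2 fold change of 1.53 ± 0.08. All 3 had a larger effect at day 12 than at day 6.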

How the data were processed

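Expression was measured in 12 polyA libraries of MKL-1 cells, 3 in each of 4 groups, with groups and replicate numbers taken from the sample titles. The authors deposited, for each library, estimated counts of reads, TPM values and effective lengths per transcript, and the submitters' processing notes name Salmon 1.2.0 for them, besides FastQC, DESeq2 and the hg38 build. The authors also deposited a table of normalized gene signal, whose normalization, like the strandedness of the libraries, was not given in the sources used here. Of the channel genes, 45 of the 100 tested channel genes have an exon that overlaps an exon of another annotated gene, 15 of them of a protein-coding gene.

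Estimated reads were summed per gene through the GENCODE annotation of GRCh38 (93.5% of transcripts matched) and rounded, which gave 35347 genes. The transcripts without a match, with 3.08 to 3.58% of the reads of a library, were dropped. The summed level of 11 of the 100 tested channel genes lay outside 0.8 to 1.25 times the authors' level. Genes kept by filterByExpr were scaled by TMM and tested two-sided by the quasi-likelihood method of edgeR 4.0.16 under R 4.3.3, all 4 groups being fitted together, and p-values were adjusted by Benjamini-Hochberg over 15024 genes. The 5 contrasts compared treatment with vehicle at both days, the 2 effects with each other, and the days within each arm. CPM values use TMM library sizes. Standard errors are the log2 fold change over the root of the F statistic. Intervals on read ratios (exact, 95%) and floors of 3 reads cover counting error only. On simulated counts of the 15024 genes with 200 changed, the fit recovered 85% of 2-fold and 93% of 4-fold changes for treatment at day 6, and 82% and 98% for treatment at day 12. The changed genes were drawn from those with a mean of at least 1 CPM, with rises and falls in equal number. These rates thus do not cover genes below that level. Nor do they cover data in which most genes change, and 66.9% were called at day 12.

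The channel genes and the partner and marker lists were chosen with earlier results of these data known. Named genes were NALCN, the largest changes at each day (at least 1 CPM in the higher group, groups not overlapping), the gene of smallest p in each class, the most abundant genes, and the clearest differences between days. KCNA3, KCNB2, KCNC1, KCND3, KCNH7, KCNJ6, KCNK9, KCNMB4, the remaining calcium, HCN and sodium channel genes, and UNC79, UNC80, FAM155B, LRRC26, ANK3, REM1 and REM2 were named after their values were seen. Some genes are not reported here by name, and counts and sums hold them. Alternatives covered scaling, filters, DESeq2 1.42.0, limma 3.58.1 on the authors' signal, transcript lengths, thresholds, the replicate block and each left-out library.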

Additional observations from a re-analysis of the deposited data

Results flagged for a closer look

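Each of the following 31 named genes had an effect of EPZ011989 that differed between the days by edgeR's test of the difference at an adjusted p under 0.05, and the value is the log2 fold change at day 12 minus that at day 6. A more positive effect at day 12 was found for KCNA10 with 8.75, KCNAB2 with 3.42, CACNA2D4 with 3.19, CLCN4 with 2.05, KCNN1 with 1.81, KCNA2 with 1.76, CACNA1C with 1.67, TPCN1 with 1.14 and KCNK3 with 0.94. The same held, with smaller differences, for CACNA1A with 0.87, KCNMA1 with 0.87, KCNMB2 with 0.84, CACNA2D2 with 0.74, KCNG1 with 0.68, KCNQ1 with 0.67, KCNC4 with 0.59, SCN8A with 0.57 and KCNH6 with 0.53. A more negative effect at day 12 was found for KCNG3 with -2.55, KCNK2 with -2.10, LRRC38 with -1.45, KCNMB3 with -1.40, KCNS3 with -1.15, CLCN5 with -1.07 and KCNJ4 with -0.98, and also for KCNAB3 with -0.94, HCN3 with -0.83, DPP6 with -0.82, CACNG4 with -0.81, KCNQ3 with -0.60 and KCNA4 with -0.57. The difference of KCNMB3 (edgeR adjusted p = 0.0475) was not called with transcript lengths (adjusted p = 0.273) or by limma on the authors' table (0.189 to 0.272), and that of KCNA4 (edgeR adjusted p = 0.0301) was -0.32 with the lengths (adjusted p = 0.57) and -0.34 to -0.33 with limma (0.518 to 0.587). Between the days, KCNQ1 had a log2 fold change of 0.13 within EPZ011989, which was not called, and of -0.54 within vehicle, which was called. KCNN1 had 0.63 within EPZ011989 and -1.18 within vehicle, both called. Vehicle also differed between the days for KCNA2 with 0.60, KCNC4 with 0.22, CACNA1A with -0.32, KCNMA1 with -0.26 and KCNJ4 with -0.52. The value of KCNA10 rests on a group with no read and is not a size. That of CACNA2D4 was not called with transcript lengths or by limma on the authors' table without a filter. CLCN4, CLCN5, DPP6, LRRC38 and TPCN1 are partner or related genes outside the channel symbols.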

How the results depend on the processing

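Counting only channel genes at 1 CPM or more in vehicle, a choice made after seeing the data, gave 27 higher at day 6 and 31 at day 12 in place of 44 and 51. For potassium genes it gave 18 and 22, and for sodium genes 1 and 2. The count lower at day 6, 16, was 10 with transcript lengths as an offset and 10 with limma on the authors' signal without a filter. For potassium genes that count of 10 was 5, 5 and 6 with these 2 and with an adjusted p under 0.01. For calcium genes the 5 lower at day 6 were 3 with the lengths and 3 with limma at each setting, and for sodium genes the 0 became 1 under each of these. At an adjusted p under 0.01, the sodium gene lower at day 12 was lost (0) and the effects more negative at day 12 were 12 in place of 19. Between the days in vehicle, 6 higher and 6 lower became 0 and 0 in the fit of these libraries alone, 1 and 0 with lengths, 2 and 0 with limma at a pseudocount of 1, 1 and 0 at 5, 1 and 0 without a filter, and 0 and 1 under 0.01, and DESeq2 called 10 lower. Leaving out single libraries gave 10 to 16 lower at day 6, with the 10 without library 2 of vehicle at day 6. It gave 6 to 10 potassium genes lower at day 6, 0 to 1 sodium gene lower at day 6, 4 to 7 sodium genes higher and 0 to 2 lower at day 12, and 0 to 10 higher and 1 to 11 lower between the days in vehicle. The replicate block gave 44 higher and 13 lower at day 6, and 47 and 20 at day 12. The labels do not say whether the replicate numbers pair libraries. Correlations of same-numbered libraries of different groups were -0.046 to 0.086, and those of other pairs -0.131 to 0.087. They were taken on deviations from means of 3 libraries and cannot decide whether the numbers pair the libraries. Of the 2809 alternative values of 114 values for named genes, 2643 kept direction and call, 161 lost the call and 5 changed sign. These were the difference of CACNA1C (-0.14 with lengths) and KCNH5 at day 12 (-0.004 with lengths, -0.0024 with limma at the 3 settings). The causes were not tested. The fit of single contrasts was not run for the difference of effects, which uses all libraries.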
